A study of Lilium davidii var. unicolor with 6 samples.

Results

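The 100 transcript sequences with the most RNA per unit of length in lily bulb scales are described here. They were taken from a table of 14140 full-length transcript sequences. A sequence qualified with a length of at least 500 bases, and the members were chosen by their mean FPKM over 6 libraries, the highest 100 being kept. FPKM is the number of sequenced fragments scaled to transcript length and to the size of the library, so it allows levels to be compared between transcripts of different length. The level itself chose the members, so levels and ranks are given as description and carry no test. Members are named by their rank, from 1 for the highest mean FPKM to 100. The table gives identifiers and no gene names, so the proteins these transcripts encode are not reported here, and the tissue label could not be checked against marker genes.

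The plant was Lilium davidii var. unicolor, known as Lanzhou lily, and its bulb scales were sampled 10 days after cutting. A replicate held 40 scales, and each value is that of a replicate. For the control, scales spent 3 h in distilled water and then received it every 3 days (n = 3). The other scales were treated in the same way with methane-rich water (MRW) at 100% strength (n = 3). No transgene or mutant was involved, and all scales shared the same moist perlite and vermiculite, in darkness until sampling. The labels speak of biological replicates without saying how extraction or sequencing was batched. The p-values therefore set the difference between the groups against the spread between these samples, whatever the source of either.

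As background, a bulb scale is a thickened storage leaf that holds starch and other reserves. A scale cut from the bulb can form small new bulbs, called bulblets, at its base, and the reserves of the scale feed them. The RNA of any tissue is shared unevenly, with a small number of transcripts at very high levels and most at low ones. Because sequencing measures each transcript as a part of the whole, a change in the most abundant ones also moves the apparent level of all others. The study asks how MRW bears on the formation of bulblets. The comparison here concerns the top of the abundance range, where each member drew between 8662 and 1092435 estimated counts in a library.

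The members spanned a 34.0-fold range of mean FPKM, and 9 of them lay above 10000 FPKM. Another 21 lay between 5000 and 10000 FPKM, 31 between 2500 and 5000, and 39 below 2500. The member at rank 100 had a mean of 1699 FPKM, which was 108 times the median of all rows in the table, 15.8 FPKM. The boundary is not a gap, since the first sequence outside it, of 580 bases, had a mean of 1666 FPKM. SDs over the 6 libraries were 87.9 FPKM for rank 100 and 118 FPKM for that sequence.

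**Figure D1:**
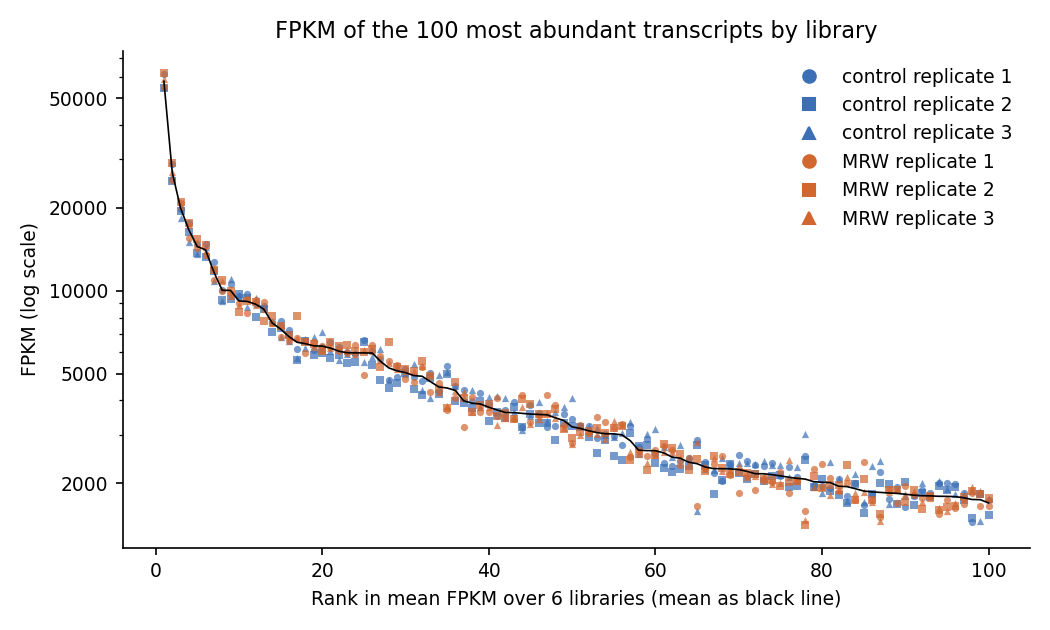
FPKM (log scale) of the 100 members against their rank in mean FPKM, with a point for each of the 3 control and 3 MRW libraries and the mean as a line. The line falls steeply over the first ranks and slowly after rank 20, and the points of both groups lie intermixed along most of it.

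Rank 1, identifier transcript_HQ_Ld3_vu_transcript22563/f4p0/941, is a sequence of 941 bases. It stood at 61292, 54667 and 54841 FPKM in the control libraries, given here and later in the order of replicates 1, 2 and 3, and at 54949, 61611 and 58836 FPKM in the MRW libraries. The groups overlapped, and its mean was 2.14 times that of rank 2 over the 6 libraries. Rank 2, of 961 bases, had 28925, 25041 and 26180 FPKM in control and 25365, 29058 and 26937 FPKM in MRW, again with overlap. In both of these members control replicate 1 and MRW replicate 2 were the high libraries of their groups.

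Rank 3, of 929 bases, had 19873, 19505 and 18395 FPKM in control and 20809, 20983 and 20327 FPKM in MRW, so that its MRW libraries all lay above its control libraries. On the TMM scale of the test, described below, its log2 fold change was 0.03 ± 0.06 (SE) with an edgeR adjusted p of 0.758. Rank 4, of 877 bases, ranged from 15103 to 17645 FPKM in control and from 15571 to 17701 in MRW. Rank 5, of 664 bases, ranged from 13595 to 14854 FPKM in control and from 14301 to 15441 in MRW. Both showed overlapping groups.

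Rank 6, of 923 bases, had mean levels of 14146 ± 764 FPKM in control and 14027 ± 571 in MRW (SD, n = 3). Rank 7, of 829 bases, had 11768 ± 927 and 11647 ± 588 FPKM. Rank 8, of 912 bases, had 9499 ± 512 FPKM in control and 10594 ± 537 in MRW. At ranks 6 and 7 the difference between groups was smaller than either SD, and at rank 8 it was about 2 SDs with overlapping groups. Rank 9, of 627 bases, had 10305 ± 866 FPKM in control and 9771 ± 224 in MRW. Rank 10, of 786 bases, had 9616 ± 89.7 FPKM in control and 8766 ± 342 in MRW. At rank 10 each control library exceeded each MRW library, and the fitted log2 fold change of -0.20 ± 0.07 (SE) did not pass the test (edgeR adjusted p = 0.074).

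The order at the very top was the same in every library, but it soon became unresolved. Ranks 1, 2, 3 and 4 followed each other in all 6 libraries, with no overlap of FPKM between ranks 1 and 2, 2 and 3, or 3 and 4 across libraries. Ranks 6 and 7 did not overlap either. Rank 5 was above rank 6 in 5 of 6 libraries, and rank 8 was above rank 9 in 3 of 6. Of the 99 pairs of neighbouring ranks, 95 overlapped in FPKM over the libraries, and 8 kept their order in all 6. For most members the rank is therefore an approximate position.

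The members were short for this table. Their lengths ran from 512 to 2382 bases with a median of 764.5, against a median of 1579 bases over all rows. Up to 700 bases were 38 members, over 700 and up to 900 bases 34, and over 900 bases 28. Of the last, 7 were longer than 1000 bases, and the longest, of 2382 bases, was at rank 64. Rank and length were weakly related among members (Spearman rho of mean FPKM and length 0.137, n = 100 transcripts measured in the same libraries). The deposited FPKM divides by a length shortened by 250 to 259 bases, so the level of the shortest members depends most on that subtraction. The median subtraction differed between libraries, at 259, 259 and 255 bases in control and 250, 258 and 255 in MRW. It therefore also bears on comparisons of FPKM between libraries.

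The identifiers have the form used for long-read transcripts, in which the number after the letter f counts the full-length reads behind a sequence. The members held 2691 of the 78937 full-length reads of the table, or 3.41%, beside 28.5% to 28.9% of the estimated counts of the short reads as group means. Rank 1 rested on 4 full-length reads, rank 2 on 7 and rank 3 on 3. The most full-length reads among members, 471, belonged to rank 56, and the next, 355, to rank 9. Up to 5 full-length reads were behind 51 members, 21 of them with 2, and over 100 were behind 6. Among the 100 sequences of the table with the most full-length reads, 13 were members. Mean FPKM and full-length reads had a Spearman rho of 0.109 over the 100 members, a description with no p.

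**Figure D2:**
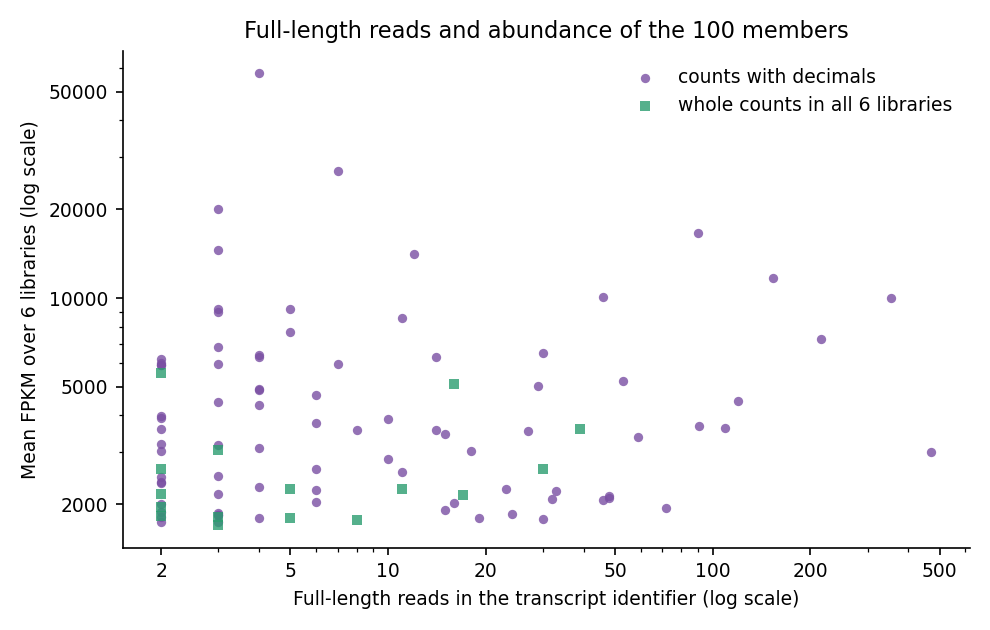
Mean FPKM over 6 libraries (log scale) against the number of full-length reads in the identifier (log scale), a point for each of the 100 members, with colour for whole counts or counts with decimals. The highest point, rank 1, rests on 4 full-length reads, and the point farthest to the right, with 471, is at a mean of 2999 FPKM.

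Most members had counts that were not whole numbers. Counts carried decimals in 84 of the 100 members and were whole in all 6 libraries in 16. Decimals can arise when a read that matches several similar sequences is divided among them, but the counting program is not known and their origin was not tested. Whole counts were found in 38 of the next 100 sequences in the order and in 52.1% of all 13331 transcripts tested. None of ranks 1 to 10 had whole counts. If reads were divided in that way, the levels of the 84 members are uncertain, and several may come from 1 gene.

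The members took 28.8%, 28.2% and 27.3% of all FPKM in the control libraries and 29.3%, 29.6% and 29.0% in the MRW libraries. Each MRW library exceeded each control library, with means of 28.1% ± 0.779 and 29.3% ± 0.303 (SD, n = 3), a difference of 1.19 percentage points. As a share of the estimated counts the groups overlapped, at 29.5%, 27.5% and 28.5% in control and 28.5%, 29.4% and 28.9% in MRW (means 28.5% ± 0.997 and 28.9% ± 0.450). The separation of the groups was thus seen per unit of length and not in counts. The bases subtracted from the length differed between libraries, as given above, and their part in this was not tested. Rows under 500 bases, which are no members, took 22.4% ± 1.76 of FPKM in control and 21.4% ± 0.866 in MRW. With only rows of at least 500 bases in the total, the members' share was 37.0%, 35.6% and 36.0% in control and 36.8%, 37.8% and 37.3% in MRW, and the groups overlapped.

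Within the members the share was concentrated at the top in all libraries alike. Rank 1 alone took 3.15% ± 0.212 of FPKM in control and 3.34% ± 0.136 in MRW (SD, n = 3). Ranks 1 to 10 together took 10.43% ± 0.595 and 11.02% ± 0.295, with overlap. Ranks 11 to 50 took 11.7%, 11.5% and 11.3% in control and 12.1%, 12.1% and 11.9% in MRW, without overlap. Ranks 51 to 100 took 6.18% ± 0.00865 in control and 6.24% ± 0.123 in MRW, with overlap. As shares of counts, the groups overlapped in each of these bands. Between 18 and 20 of the top ranks made up 50% of the members' FPKM in each library. The effective number of members, that is, the number of equally abundant transcripts that would be as diverse (exponential of the Shannon entropy), was 66.4 ± 1.63 in control and 65.1 ± 1.248 in MRW (SD, n = 3), so the difference was smaller than the SD of control and about that of MRW.

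**Figure D3:**
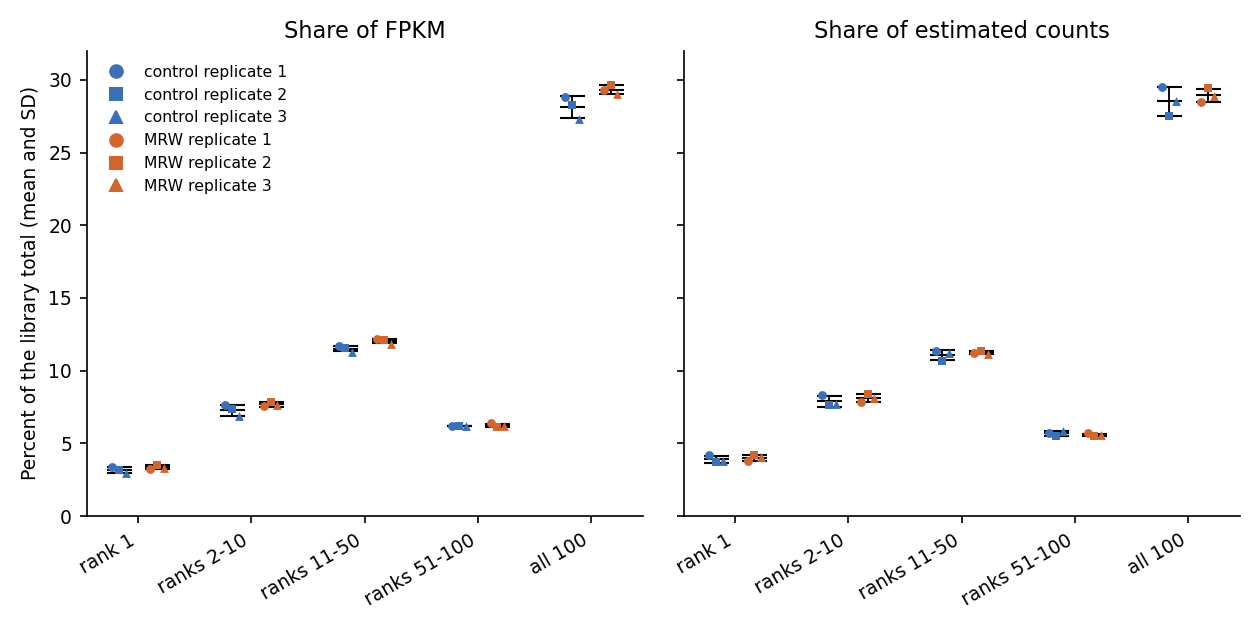
Share of each library's FPKM (left) and estimated counts (right), in percent, taken by bands of rank and by all 100 members, with a point for each library and the mean and SD of the 3 libraries in a group. The 2 groups stand clear of each other in FPKM for ranks 11 to 50 and for all 100, and overlap in every band in counts.

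Membership was nearly the same in both waters. In every library 96 or 97 of the members were among that library's own top 100, and 88 members were there in all 6. The mean of these same libraries chose the members, so a high overlap here is partly set by the rule. The top 100 by control mean and the top 100 by MRW mean shared 95 sequences. Of the 5 found only in the control list, ranks 78, 87 and 94 were members and fell to places 112, 110 and 102 in MRW. Of the 5 found only in the MRW list, ranks 85 and 98 were members, just outside the first 100 in control and at places 73 and 84 in MRW. Those 2 did not pass the test (edgeR adjusted p = 0.136 and 0.430, log2 fold changes 0.28 and 0.16). The other 5 sequences in these lists lay just outside the 100 members and had adjusted p-values of 0.144 to 0.894 by edgeR.

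Levels of members were compared between MRW and control with edgeR's quasi-likelihood test over all 13331 transcripts tested, on estimated counts scaled between libraries by TMM (trimmed mean of M-values) and with Benjamini-Hochberg adjustment over all of them at 0.05. All 100 members passed the filter on low counts. The test called 10 members changed, 9 lower and 1 higher in MRW. Over all transcripts tested 17.5% were called, 11.9% lower and 5.63% higher, against 10% of the members in this fit. The order of these shares depended on the setting. It turned without control replicate 2, with 32% of members against 25.0% of all transcripts, and after removal of a trend on transcript length from each library. With a robust loess curve the shares were 21% and 19.2%, and with a least-squares curve 61% and 35.6%. In the other 14 refits the members' share was the lower, for example 18% against 19.97% with DESeq2. Of the next 100 sequences in the order, 9 were called, 8 lower and 1 higher. Of the next 900, 14.2% were called, 11.1% lower and 3.11% higher. Of the 3175 transcripts tested of 500 to 1000 bases, 21.4% were called, 18.4% lower and 3.02% higher. At least 1.5-fold changed and called were 2 members, both lower, against 11% of all transcripts tested.

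The count of calls changed when single libraries were left out, and so did the share over all transcripts tested. Leaving out control replicate 1, 2 or 3 gave 5, 32 or 6 calls, and leaving out MRW replicate 1, 2 or 3 gave 5, 4 or 5. Over all transcripts tested the shares were 12.6%, 25.0% and 13.8%, and then 14.4%, 11.9% and 12.8%, against 17.5% with all libraries. Of the 32 calls without control replicate 2, 31 were lower in MRW. In FPKM, control replicate 2 was the lowest control library for 67 of the 100 members. On the TMM scale of the test, its median log2 CPM deviation from each member's mean was -0.12, against 0.10 and 0.12 in control replicates 1 and 3 and -0.05 to -0.02 in the MRW libraries. The part of this in the calls was not tested. In log2 FPKM the median deviations were -0.07 in control replicate 2 and 0.04 and 0.03 in the other control libraries.

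The split of calls between rises and falls also depended on the scaling between libraries. It was 1 higher and 9 lower with TMM, 6 and 9 with library totals, 6 and 5 with upper quartile factors, and 5 and 9 with limma on log2(FPKM + 1). With the length trend taken out by the robust curve, an alternative chosen after seeing the data, 11 members were higher and 10 lower. With the same curve fitted by least squares, which moved the median of all transcripts to 0.14, the split was 58 higher and 3 lower. All 10 members called by the test were also called with RLE factors, with library totals, with DESeq2, with limma on FPKM and after robust removal of the length trend. Of the 10, 9 were called with limma-voom, 6 with upper quartile factors, 5 with the replicate number as a block and 4 after least-squares removal of the length trend.

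The typical member differed little between the waters. Its median log2 fold change was -0.09 (MRW over control), and the 10th and 90th percentiles over members were -0.28 and 0.12. The median over all transcripts tested was 0.02, and it was -0.11 over the 3175 tested of 500 to 1000 bases, the length of most members. After robust removal of the length trend the members' median was 0.0078 and that of all tested -0.0052. With upper quartile factors, which shift the median of all transcripts to 0.14, the members' median was 0.03. On the TMM scale the mean CPM in MRW was within 10% of that in control for 63 members and more than 25% away for 5. Groups did not overlap in CPM for 25 members, 20 lower and 5 higher. Over all transcripts tested the share was 36.7%, made up of 19% lower and 17.7% higher. In FPKM the groups of 32 members did not overlap, 18 lower and 14 higher, against 37.9% of all transcripts tested (15.6% lower and 22.4% higher).

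**Figure D4:**
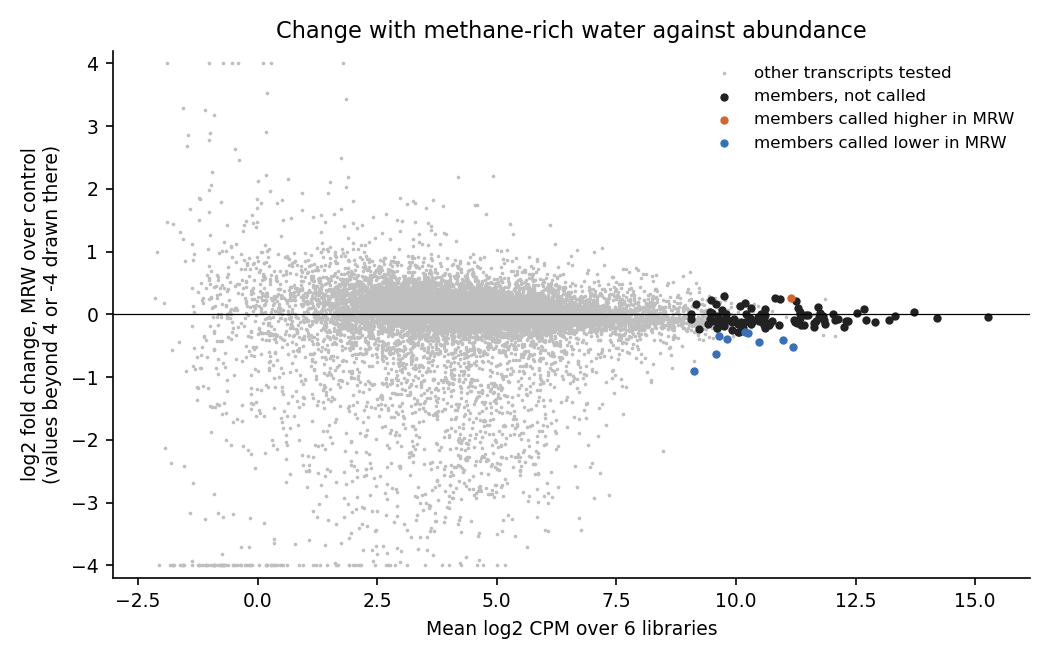
Fitted log2 fold change (MRW over control) against mean log2 CPM over 6 libraries for all 13331 transcripts tested, with members in dark or coloured points. The members, chosen on FPKM, lie at the right of the cloud among other transcripts of high CPM; the 9 called lower lie between -0.90 and -0.28 and the 1 called higher at 0.26.

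Among ranks 1 to 10, edgeR called 0 changed, with 1 at an unadjusted p under 0.05, and limma-voom and limma on FPKM also called 0. DESeq2 called 1 of them, lower. Without control replicate 2, edgeR called 3 of them, all lower. After removal of the length trend it called 1 higher with the robust curve and 8 higher with least squares. Of ranks 11 to 50, 3 were called (7.5%), 2 lower and 1 higher, and of ranks 51 to 100, 7 (14%), all lower. Over all transcripts tested the share was 17.5%. Whether these bands differ was not tested.

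The largest fall belonged to rank 78, transcript_HQ_Ld3_vu_transcript28111/f46p0/535, of 535 bases with 46 full-length reads. It had 2513, 2423 and 3034 FPKM in control and 1589, 1409 and 1466 FPKM in MRW. Every MRW library lay well below every control library. The fitted log2 fold change was -0.90 ± 0.12 (SE), or 1.87-fold lower in MRW (edgeR adjusted p = 0.00134). In RNA from whole scales, fewer cells that hold a transcript and less of it per cell cannot be told apart. Rank 78 kept this direction and its call in all 17 refits of the comparison, with log2 fold changes from -1.01 to -0.60.

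Rank 87, transcript_HQ_Ld3_vu_transcript25477/f24p0/678, of 678 bases with 24 full-length reads, had 2202, 2010 and 2404 FPKM in control and 1507, 1542 and 1462 FPKM in MRW. The MRW libraries were close together and all below the control libraries. Its log2 fold change was -0.63 ± 0.10 (SE), or 1.54-fold lower (edgeR adjusted p = 0.00368), and its call also stood in all 17 refits. Rank 35, of 793 bases with 3 full-length reads, had 5332, 4985 and 5063 FPKM in control and 3679, 3747 and 3824 FPKM in MRW. It was the most abundant member called changed, at 1.44-fold lower (log2 fold change -0.52 ± 0.07 SE, edgeR adjusted p = 0.00156), and its share of all FPKM went from 0.283% to 0.214%. Its call stood in all 17 refits.

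Rank 57, of 759 bases, had 3224, 3058 and 3351 FPKM in control and 2492, 2422 and 2589 FPKM in MRW, a log2 fold change of -0.43 ± 0.08 (SE; edgeR adjusted p = 0.00891). Its groups did not overlap, and the call was lost without MRW replicate 2 (adjusted p = 0.0545) and after least-squares removal of the length trend (adjusted p = 0.0510; range over the 17 refits 3.68e-06 to 0.0545). Rank 50, of 891 bases, had 3429, 3242 and 4081 FPKM in control and 2800, 2912 and 2788 FPKM in MRW. Control replicate 3 was its high library. Its log2 fold change of -0.42 ± 0.11 (SE; edgeR adjusted p = 0.0408) did not pass when any library other than control replicate 2 was left out (adjusted p 0.0718 to 0.130). The call was also lost with upper quartile factors (0.0731), with the replicate block (0.0831) and after least-squares removal of the length trend (0.199), and adjusted p ranged from 0.00126 to 0.199 over the 17 refits.

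The other 4 members called lower were ranks 94, 59, 95 and 96, with log2 fold changes of -0.40, -0.35, -0.30 and -0.28. Their edgeR adjusted p-values were 0.00716, 0.0374, 0.0370 and 0.0248, and they were not followed singly over the refits. Of the 10 calls, 4 or 5 stood when any library other than control replicate 2 was left out. The only member called higher was rank 44, transcript_HQ_Ld3_vu_transcript22877/f2p0/898, of 897 bases with 2 full-length reads. It had 3211, 3192 and 3118 FPKM in control and 4181, 4058 and 3784 FPKM in MRW, so the groups did not overlap. Its log2 fold change was 0.26 ± 0.07 (SE), or 1.20-fold higher (edgeR adjusted p = 0.0395). The call was lost when any library other than control replicate 2 was left out (adjusted p 0.0698 to 0.146) with limma-voom (adjusted p = 0.0540) and with the replicate block (adjusted p = 0.123), with a range over the 17 refits of 8.3e-05 to 0.146. Of the 10 members called, 9 had counts with decimals, which 84 members had (10.7% of them called). The other had whole counts, which 16 members had (6.25% of them called). Whether these shares differ was not tested. 

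**Figure D5:**
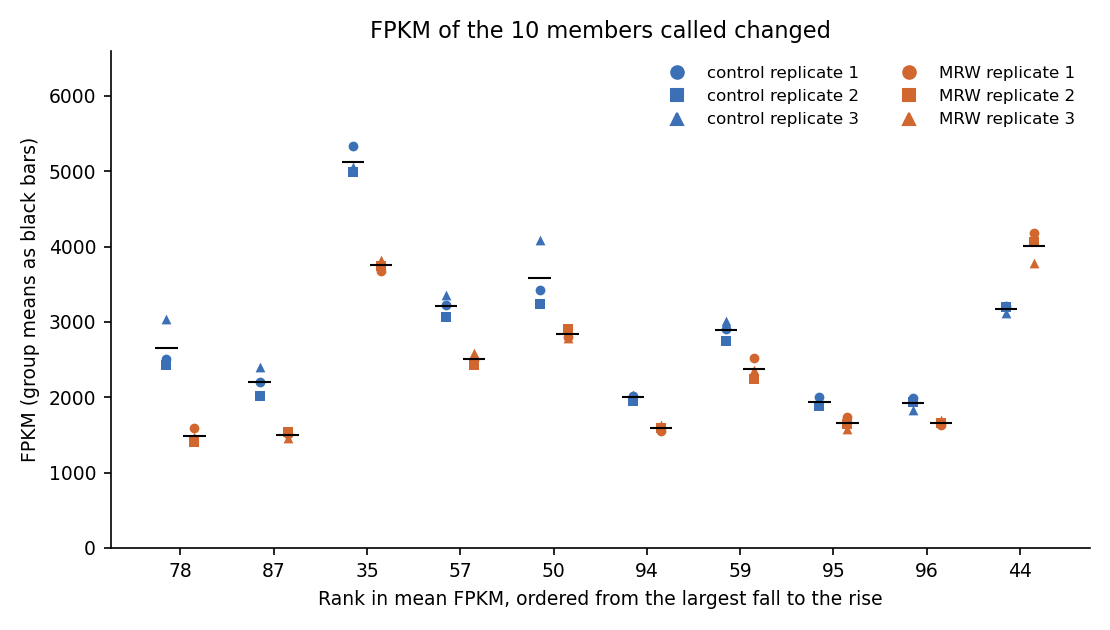
FPKM in each of the 3 control and 3 MRW libraries for the 10 members called changed, labelled by rank and ordered from the largest fall (rank 78) to the only rise (rank 44), with group means as bars. In each of the 10 the points of the 2 groups do not overlap.

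Replicates lay close together for most members. The coefficient of variation of FPKM within groups (CV, mean of both groups) had a median of 5.32%, was under 5% for 44 members and over 10% for 6. The median was 5.77% for the next 100 sequences, 5.29% for the next 900 and 9.54% over all transcripts tested, which include many at low counts. The smallest CV, 1.27%, was that of rank 93, of 1046 bases, with 1847, 1780 and 1821 FPKM in control and 1793, 1793 and 1772 FPKM in MRW. Rank 69, of 1099 bases, followed with 1.65%, at 2338 ± 27.6 FPKM in control and 2177 ± 46.0 in MRW (SD, n = 3). Rank 43, of 691 bases, had 2.08%, at 3791 ± 147 and 3435 ± 10.2 FPKM. These 3 had whole counts, and none of them was called changed by edgeR with all libraries (adjusted p 0.388, 0.106 and 0.0738). DESeq2 called ranks 69 and 43 lower in MRW (adjusted p 0.0216 and 0.00839). Without control replicate 2, edgeR called all 3 lower (adjusted p 0.0473, 0.0199 and 0.0137), and after least-squares removal of the length trend it called rank 93 higher (adjusted p 0.00728).

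The least steady member was rank 65, of 764 bases with 2 full-length reads, at a CV of 27.6%. It had 2865, 2755 and 1590 FPKM in control and 1658, 2453 and 2825 FPKM in MRW, so control replicate 3 and MRW replicate 1 were low. Rank 25, of 792 bases and also with 2 full-length reads, was lowest in the same libraries, at 6624, 6520 and 5505 FPKM in control and 4951, 5986 and 6120 FPKM in MRW, with a CV of 10.6%. Rank 76, the shortest member at 512 bases, had a CV of 11.1%, with 2285, 1946 and 2104 FPKM in control and 1851, 2021 and 2428 in MRW. The 3 showed overlapping groups and did not pass the test (edgeR adjusted p 0.773, 0.229 and 0.728). Counts of all 3 carried decimals. Over all 100 members the median CV was 5.42% with decimals and 5.17% with whole counts.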

How the data were processed

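Per the labels' protocols, libraries followed standard Illumina protocols, and Subread appears, without a stated role, per the submitters' processing notes. The design text names the soybean genome, while the rows are lily transcript identifiers. Which program counted reads, and whether by strand, is not given in the sources used here, nor is its version. The authors deposited estimated counts, not normalized (20988773 to 28031469 per library), and FPKM, which equals those counts divided by the library total and a shortened length.

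Estimated counts were rounded and filtered with filterByExpr (minimum count 10, minimum total 15), which left 13331 of 14140 rows. TMM factors were 0.951, 1.028 and 0.942 in control and 1.031, 1.026 and 1.028 in MRW. The factor of control replicate 2 was thus near those of the MRW libraries, and those of control replicates 1 and 3 were lower. After this scaling, edgeR 4.0.16 (under R 4.3.3) tested MRW against control without covariates. The SE is the log2 fold change divided by the square root of F. The script was tested on simulated data. Counts within 0.005 of a whole number in all libraries were called whole. Pairs of replicates had chi-square values of 8.2 to 27.4 per transcript where sampling alone gives about 1, so each was kept.

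The members and lists were chosen with earlier results of these data known. Described singly are ranks 1 to 10, the 5 largest called falls and rises, the 3 steadiest and 3 least steady members, and the boundary; ranks 56, 64, 85, 94 and 98 and the remaining called members were chosen after their values were seen. Alternatives were RLE and upper quartile factors, library totals, DESeq2 1.42.0, limma 3.58.1 (voom, and log2(FPKM + 1)), other filters, the replicate block, a 1.5-fold threshold, other rankings and leaving out each library. Removal of a length trend (loess, span 0.3), ranking by counts per full length and the calls under ranking by CPM were added after seeing the data.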

Additional observations from a re-analysis of the deposited data

How the results depend on the processing

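Calls numbered 10 (1 higher, 9 lower). They were 18 (3 and 15) with DESeq2, 21 (11 and 10) after robust removal of the length trend, 61 (58 and 3) after its removal by least squares, and 5 (0 and 5) with the replicate block. The number higher was 6 with library totals, 5 with limma on FPKM and 0 with limma-voom. With upper quartile factors it was 6, with 5 lower. The least-squares curve moved the median of all tested transcripts to 0.14 and the members' median to 0.20; it also turned ranks 1, 2, 4, 6, 9 and 93 into rises, at 0.23, 0.22, 0.25, 0.18, 0.14 and 0.19. Upper quartile factors gave a members' median of 0.031. Without a length minimum, and with one of 1000 bases, 2 were higher and 5 lower. A 1.5-fold threshold left 2, with 0 higher and 2 lower, by construction. Leaving out one library gave 4 to 32 calls, 0 to 1 higher and 4 to 31 lower, beside 11.9% to 25.0% of all transcripts tested. The members' median was then -0.16 to -0.05, with shares of FPKM of 27.8% to 28.5% in control and 29.2% to 29.5% in MRW. The causes were not tested.

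The share of FPKM (28.1% in control, 29.3% in MRW) became 28.9% of counts in MRW. With rows of at least 500 bases as the total it was 36.2% and 37.3%, with no length minimum 39.9% and 40.9%, and with a minimum of 1000 bases 4.87% and 5.17%. It was 21.9% and 23.1% for 50 members and 35.1% and 36.5% for 200.

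Replicate numbers are shared by the groups, but the labels do not say what they share. The block, with its 5 calls, was therefore kept as an alternative. The deviations of same-numbered libraries from their group mean correlated at -0.068 to -0.014, and 0 of the 6 correlated best with its own number. Deviations within a group of 3 are tied to each other, so these correlations cannot exclude a shared batch. Every member drew at least 8662 estimated counts in each library, and the members' median CV of FPKM within groups was 5.32%. How far counting error, replicate spread, scaling or the dividing of reads among sequences limits these comparisons was not tested.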

Other observations

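The minimum of 500 bases kept out some of the highest FPKM values of the table. Of the 767 rows under 500 bases, 35 had a mean FPKM above that of rank 100. Together these 35 took 15.7% ± 1.40 of FPKM in control and 15.3% ± 0.819 in MRW (SD, n = 3), but 4.12% ± 0.542 and 3.93% ± 0.211 of the estimated counts. A sequence of 413 bases led them with a mean of 33252 FPKM, which would place it between ranks 1 and 2. One of 232 bases had a mean of 14327 FPKM from a mean of 3309 counts, fewer than the 8662 counts of the weakest member in any library, and carried 831 full-length reads. Its length is below the 250 to 259 bases subtracted from longer sequences.

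Of all rows of the table, 3 had more full-length reads than rank 56, the member with the most. Over all rows, mean counts and full-length reads had a Spearman rho of 0.406 (n = 14140 rows), against 0.109 for mean FPKM and full-length reads over the 100 members. The members were chosen on a narrow range of high levels, so the 2 values are not on an equal footing.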
